A study of Mus musculus with 4 samples.

Results

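The 10 genes described here encode histone methyltransferases of lysine 4 and lysine 36 of histone H3, together with the chromatin remodeller gene *Atrx* and its partner *Daxx*. They were chosen by name, as *Kmt2a*, *Kmt2c*, *Kmt2d*, *Kmt2e*, *Ash1l*, *Setd2*, *Nsd1*, *Nsd2*, *Atrx* and *Daxx*, and all 10 were found among the 56884 genes of the series. The nuclei were taken from medial neocortex at E16.5, where E stands for embryonic day in the mouse. All embryos carried *Sst-Cre* and a tdTomato reporter, and the 2 Dnmt1 KO samples (*Sst-Cre/tdTomato/Dnmt1 loxP2*) additionally carried loxP-flanked *Dnmt1*, which Cre removes from cells of the somatostatin (*Sst*) lineage alone. The 2 control samples were *Sst-Cre/tdTomato*. Each sample was 1 single-nucleus library from 1 brain, and the question put to these genes was where they are expressed in the developing cortex and whether their levels differ between the genotypes.

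KMT2A, KMT2C and KMT2D methylate H3K4 at promoters and enhancers as the catalytic cores of COMPASS-type complexes. KMT2E carries a related SET domain but is not regarded as an active H3K4 methyltransferase, and KMT2A additionally binds unmethylated CpG-rich DNA. SETD2 deposits trimethylated H3K36 along transcribed genes, whereas NSD1, NSD2 and ASH1L deposit dimethylated H3K36. Both marks touch DNA methylation, since DNMT3 enzymes read methylated H3K36 and are repelled by methylated H3K4. ATRX and DAXX load the histone variant H3.3 onto silent repeats. Several of these genes are mutated in neurodevelopmental disorders.

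The members lie on 7 chromosomes (GRCm39, protein-coding genes of GENCODE). *Setd2* (chr9:110358262-110447701, plus strand) and *Kmt2a* (chr9:44714652-44792621, minus) share chromosome 9. *Kmt2c* (chr5:25476796-25703810, minus), *Kmt2e* (chr5:23639418-23709233, plus) and *Nsd2* (chr5:33977734-34055319, plus) share chromosome 5. *Kmt2d* is at chr15:98729550-98769085 (minus), *Ash1l* at chr3:88857929-88986682 (plus), *Nsd1* at chr13:55357560-55466138 (plus), *Atrx* at chrX:104841131-104973014 (minus) and *Daxx* at chr17:34128384-34134564 (plus). Their spans differ widely. *Daxx* covers 6.18 kb, *Kmt2d* 39.5 kb and *Kmt2c*, the longest, 227 kb, against a median of 19.3 kb over 21667 coding genes. *Kmt2e*, *Ash1l*, *Nsd1* and *Nsd2* overlap a coding gene on the opposite strand (*Srpk2*, *Dap3*, *Rab24* and *Nelfa*), and *Daxx* overlaps the noncoding *BC051226*. Small noncoding RNA genes, other noncoding genes or pseudogenes also overlap *Kmt2a*, *Kmt2c*, *Kmt2e*, *Ash1l*, *Nsd1* and *Atrx*, such as the opposite-strand *Gm48702* in *Kmt2a*. Strand handling in the counting is not given in the sources used here, so reads of these members may be shared with the genes they overlap.

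Promoter windows of 300 bases (250 before and 50 after the start, RefSeq, build GRCm38.p6) were held for 6 members, namely *Setd2*, *Kmt2a*, *Kmt2c*, *Kmt2d*, *Atrx* and *Daxx*. CpG dinucleotides, the substrate of DNA methyltransferases, numbered 56 in the window of *Kmt2c*, 38 in *Setd2*, 36 in *Kmt2a*, 33 in *Daxx*, 27 in *Kmt2d* and 11 in *Atrx*, against a median of 7 over 27025 genes. The letters GGGCGG, read on either strand, occurred in 5 of the 6 windows, all but that of *Atrx*, and in 35.9% of all genes' windows. CCGGAAGT occurred in the *Daxx* window alone, and in 4.00% of all windows. The windows of *Setd2* and *Kmt2d*, whose levels ran closely together across the cell classes described later, are shown with that of *Atrx*, which held the fewest CpG. Capitals mark each CpG, and all 3 read 5′ to 3′ on the strand of the gene.
Setd2, chr9:110532347-110532646, plus strand: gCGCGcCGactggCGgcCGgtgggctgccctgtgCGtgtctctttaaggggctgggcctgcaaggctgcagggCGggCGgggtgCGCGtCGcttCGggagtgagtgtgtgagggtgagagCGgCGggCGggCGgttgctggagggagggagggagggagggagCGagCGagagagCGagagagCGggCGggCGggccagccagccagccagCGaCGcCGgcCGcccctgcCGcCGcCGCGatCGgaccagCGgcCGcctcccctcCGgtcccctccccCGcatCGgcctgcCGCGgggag
Kmt2d, chr15:98871156-98871455, minus strand: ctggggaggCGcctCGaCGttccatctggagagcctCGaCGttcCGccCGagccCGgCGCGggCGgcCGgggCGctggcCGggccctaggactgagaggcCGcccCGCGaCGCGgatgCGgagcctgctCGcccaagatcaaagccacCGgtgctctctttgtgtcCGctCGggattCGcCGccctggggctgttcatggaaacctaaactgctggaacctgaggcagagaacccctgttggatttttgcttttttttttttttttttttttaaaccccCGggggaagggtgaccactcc
Atrx, chrX:105929323-105929622, minus strand: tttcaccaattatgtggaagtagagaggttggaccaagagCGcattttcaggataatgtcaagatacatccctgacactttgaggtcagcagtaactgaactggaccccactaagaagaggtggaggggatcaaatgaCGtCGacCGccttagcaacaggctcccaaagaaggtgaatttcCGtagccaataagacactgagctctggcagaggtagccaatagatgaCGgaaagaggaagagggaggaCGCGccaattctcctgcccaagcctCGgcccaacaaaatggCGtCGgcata

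After filtering, 29656 nuclei remained, 5640, 12064, 7047 and 4905 of them in the order Dnmt1 KO replicate 1, Dnmt1 KO replicate 2, control replicate 1, control replicate 2, which is kept below. The deposited libraries held 96455278 to 201141704 transcripts each. No barcode was shared between libraries. Control replicate 2 was the only library of batch 2, so batch 2 held no Dnmt1 KO library. It had a median of 21140 transcripts per nucleus against 12274 to 12401 in the others. Radial-glia-like nuclei made up a larger share of Dnmt1 KO replicate 1 (931 of 5640) than of the other libraries (9.36% to 9.96%). *Dnmt1* itself reached 61.8 and 47.5 CPM in the KO pair against 59.6 and 56.0 CPM in the control pair over all nuclei, where CPM are counts scaled to 1000000 per summed library. It reached 76.1 and 46.1 CPM in the KO pair against 81.2 and 66.5 CPM in the control pair in *Sst*+/*Gad2*+ nuclei, the 219 nuclei with a transcript of both genes (16, 136, 40 and 27 per library). The *Dnmt1* levels overlapped between the genotypes in both, and so did not check the labels. In IPC-like nuclei (57.2 and 48.8 against 62.3 and 64.8 CPM), upper-layer-like nuclei (49.1 and 41.8 against 50.8 and 50.1 CPM) and deep-layer-like nuclei (43.7 and 37.6 against 44.5 and 44.4 CPM) *Dnmt1* was lower in the KO pair without overlap, a separation in either direction that 39.7%, 32.2% and 39.2% of all genes showed there. None of these classes belongs to the *Sst* lineage, so this did not check the labels either. In radial-glia-like nuclei *Dnmt1* overlapped (128 and 83.1 against 114 and 108 CPM). In sums over all nuclei, fewer cells of a type and less RNA per cell cannot be told apart.

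All 10 members were detected in every library, and 9 of them at high levels. Scaled by gene span, since nuclear RNA is generally rich in introns, *Kmt2e* stood highest over all nuclei with 6.06 ± 0.320 CPM per kb (SD, n = 4 libraries). *Atrx* (4.71 ± 0.224), *Kmt2a* (4.61 ± 0.191) and *Nsd2* (4.00 ± 0.122) followed. *Nsd1* (2.98 ± 0.338), *Ash1l* (2.54 ± 0.156), *Kmt2c* (2.50 ± 0.139), *Kmt2d* (2.45 ± 0.195) and *Setd2* (1.98 ± 0.107) formed a lower group in which *Ash1l*, *Kmt2c* and *Kmt2d* lay within their spread of one another. Since it is not known whether introns were counted, the order per kb of exon is given as well, and it differed. There *Atrx* (28.4 ± 1.35 CPM per kb of exon) and *Kmt2e* (27.2 ± 1.44) led within their spread, followed by *Ash1l* (22.1 ± 1.35), *Kmt2c* (22.0 ± 1.22) and *Kmt2a* (21.5 ± 0.893). *Nsd1* (17.1 ± 1.94), *Nsd2* (16.1 ± 0.490) and *Setd2* (16.0 ± 0.869) came next, and *Kmt2d* (4.85 ± 0.386) lay far below. *Daxx*, the shortest member, was lowest on both scales, with 0.927 ± 0.152 CPM per kb of span and 1.44 ± 0.236 per kb of exon, and rested on 2576 transcripts over all nuclei, whereas *Atrx* rested on 285518.

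To follow the members across the tissue, nuclei were gated into classes by the mean score of marker genes, none of which is a member. Of 14 marker lists, 10 gave classes with at least 20 nuclei in every library, and each is named after its markers with the ending "-like". In the radial-glia-like, deep-layer-like, Cajal-Retzius-like, endothelial-like and mural-like gates all markers were seen in 10% or more of nuclei at 1.5 times the level of the rest or higher. In the other classes 6 to 9 of 8 to 10 markers were. Since the markers defined the gates, their levels are no result.

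**Figure D1:**
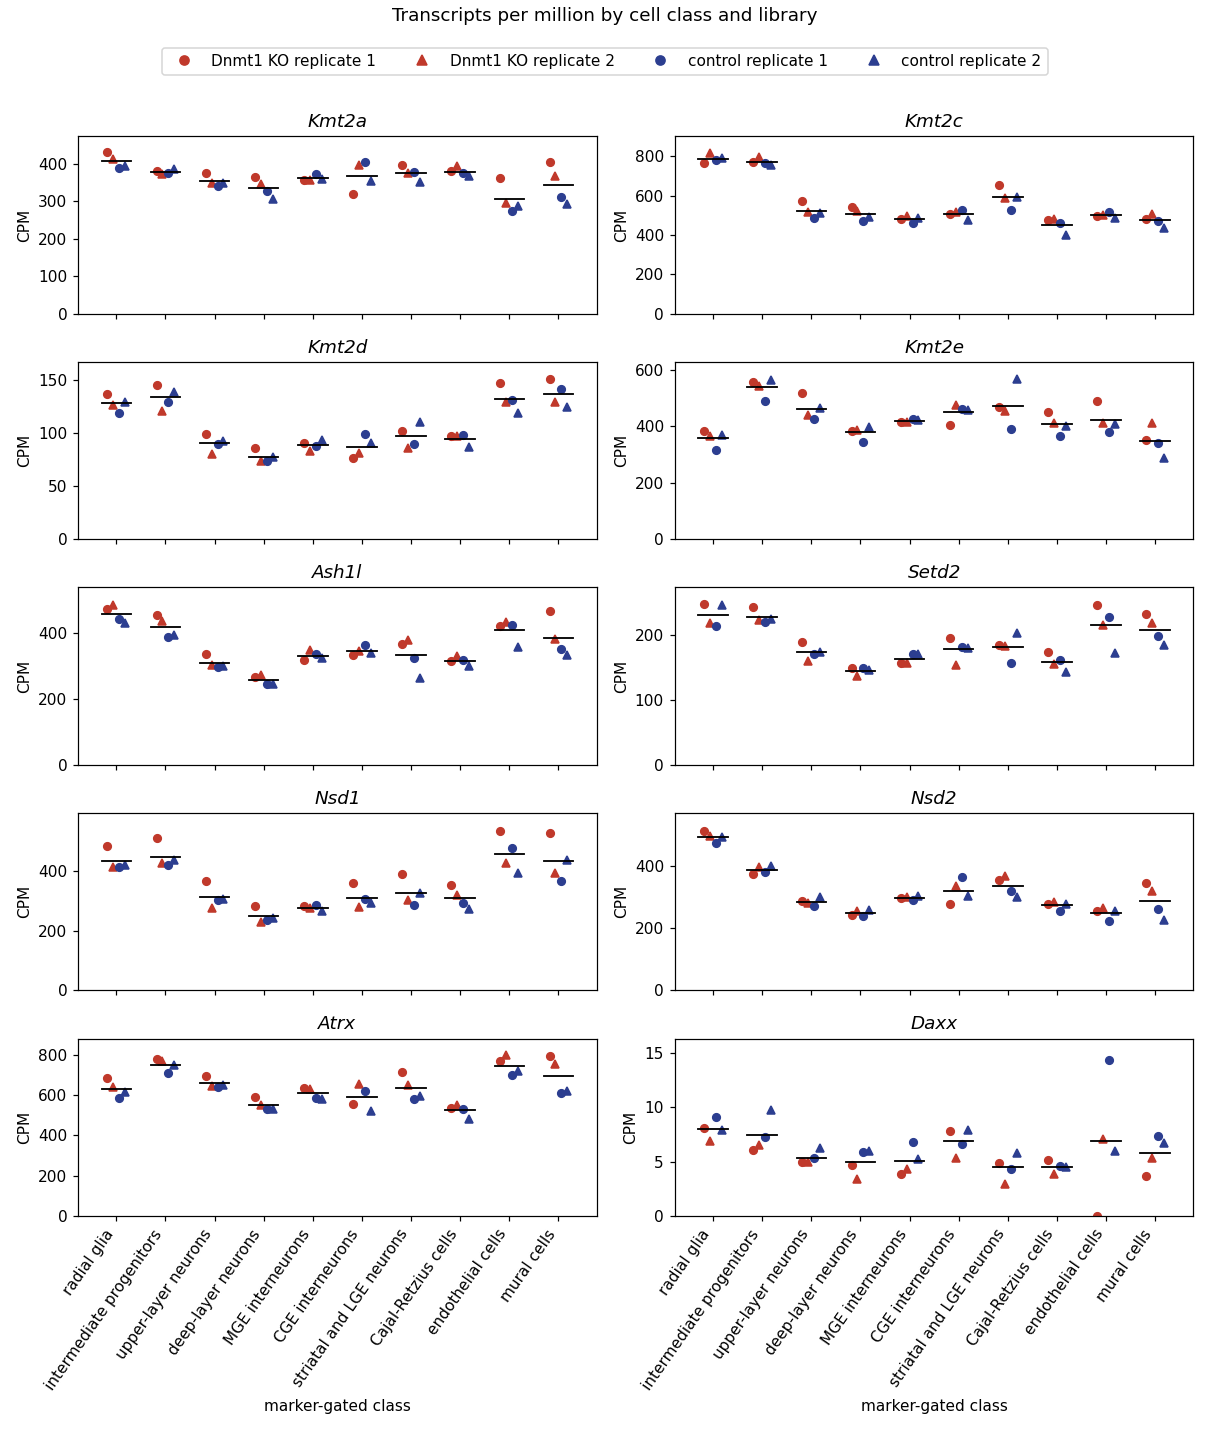
CPM (vertical axes, each starting at 0) of the 10 members in 10 marker-gated classes, 1 point for each of the 4 libraries (red, Dnmt1 KO, and blue, control, with circles for replicate 1 and triangles for replicate 2) and a black bar at their mean. *Nsd2* fell from 493 CPM in radial-glia-like to 248 CPM in deep-layer-like nuclei, while *Kmt2e* and *Atrx* were highest in IPC-like nuclei.

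As a share of all transcripts, all 10 members had their highest mean in a progenitor or vascular class, and 8 had their lowest in a neuron class. The exceptions were *Kmt2a*, lowest in endothelial-like nuclei (305 CPM), and *Kmt2e*, lowest in mural-like (348 CPM) and next in radial-glia-like nuclei (359 CPM), below every neuron class. How many of all genes had their highest and lowest means in such classes was not counted, so these counts are no trait of the members. *Setd2*, *Kmt2a*, *Kmt2c*, *Ash1l*, *Nsd2* and *Daxx* had their highest mean in radial-glia-like nuclei, and *Kmt2e* and *Atrx* in nuclei resembling intermediate progenitors (IPC-like). *Nsd1* was highest in endothelial-like nuclei (459 ± 61.5 CPM, SD, n = 4) and *Kmt2d* in mural-like nuclei (mean 137 CPM), each only slightly above the IPC-like mean (449 ± 42.3 and 134 ± 10.9 CPM). The ratio of the highest to the lowest class ran from 1.33 for *Kmt2a* to 1.99 for *Nsd2*. Each member's class order places the classes closest in mean side by side, and the share of separated neighbours over all genes was not counted. Of 90 pairs of neighbours in these orders, 6 had ranges over the 4 libraries that did not overlap. The 6 were radial-glia-like over IPC-like for *Kmt2a* and *Nsd2*, IPC-like over striatal- and LGE-like neurons for *Kmt2c* and *Nsd2*, radial-glia-like over striatal- and LGE-like for *Kmt2d*, and upper-layer-like over deep-layer-like for *Ash1l*. All other neighbours in these orders overlapped.

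The order of classes depended on what the transcripts were scaled to. With TMM scaling, which sets the bulk of genes to the same level, the highest class of 4 members was no longer a progenitor class. *Kmt2a* was then highest in deep-layer-like, *Kmt2e* and *Atrx* in upper-layer-like and *Daxx* in CGE-interneuron-like nuclei, whereas *Nsd2* and *Ash1l* stayed highest in radial-glia-like nuclei. In the contrast of radial-glia-like with excitatory neuron nuclei the median of all genes moved from 0.02 with TMM to 0.51 (log2) with library totals, and in that of IPC-like with radial-glia-like nuclei from -0.02 to -0.12. The tests below use TMM, so a difference is relative to the typical gene, and the values on library totals are given where a direction changes.

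*Nsd2* showed the clearest pattern, a rise in dividing progenitors. In cycling progenitors, which are the radial-glia-like and IPC-like nuclei with high scores of mitotic genes such as *Mki67* and *Top2a*, it reached 597, 634, 604 and 649 CPM in the order given above. In non-cycling progenitors it reached 353, 320, 311 and 326 CPM. All 4 libraries were higher in cycling nuclei, by 1.69-fold to 1.99-fold, and the ranges lay far apart. This gave a log2 fold change of 0.90 (SE 0.0560, edgeR adjusted p 2.02e-06). The call held within each progenitor class taken alone, with 0.76 (adjusted p 8.26e-06) in radial-glia-like and 1.26 (adjusted p 2.18e-07) in IPC-like nuclei by edgeR.

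With TMM, the excess of *Nsd2* in radial glia was not called once dividing nuclei were left out. Radial-glia-like nuclei held 512, 496, 472 and 491 CPM and excitatory neuron nuclei (upper-layer-like and deep-layer-like together) 256, 265, 254 and 278 CPM, a log2 fold change of 0.41 (SE 0.0571, edgeR adjusted p 0.000602). When only non-cycling radial-glia-like nuclei were compared with the neurons, the log2 fold change with TMM was -0.04 (edgeR adjusted p 0.670). In CPM the non-cycling nuclei, with 400, 334, 346 and 367, still lay above the neurons in every library, so the loss of the excess holds relative to the typical gene and not as a share of transcripts. Likewise IPC-like nuclei were lower than radial-glia-like nuclei (log2 fold change -0.25, SE 0.0505, edgeR adjusted p 0.00304), with -0.09 (adjusted p 0.257) among non-cycling nuclei of both classes. Cycling IPC-like nuclei had the highest *Nsd2* levels of all populations examined, 696, 815, 800 and 796 CPM.

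Of the 10 members, 7 were called between cycling and non-cycling progenitors (edgeR adjusted p under 0.05), against 51.4% of all genes tested. Besides *Nsd2*, *Kmt2a* (log2 fold change 0.18, SE 0.0475, adjusted p 0.0107), *Setd2* (0.16, SE 0.0465, adjusted p 0.0166), *Ash1l* (0.13, SE 0.0450, adjusted p 0.0393) and *Daxx* (0.34, SE 0.126, adjusted p 0.0485) were higher in cycling nuclei by edgeR. *Kmt2a* was the other member called within both progenitor classes (0.17 in radial-glia-like and 0.30 in IPC-like nuclei). *Setd2* was called within radial-glia-like nuclei (0.29) and not within IPC-like nuclei (0.13). *Kmt2e* (-0.46, SE 0.0506, adjusted p 7.93e-05) and *Atrx* (-0.13, SE 0.0459, adjusted p 0.0469) were lower in cycling nuclei. Cycling nuclei were mostly radial-glia-like (1515 of 1820) and non-cycling ones mostly IPC-like (2179 of 3299), so both values mix the cycle with the class. Within radial-glia-like nuclei the log2 fold changes turned to 0.02 for *Kmt2e* and 0.08 for *Atrx*, neither called. Within IPC-like nuclei *Kmt2e* was lower as well (-0.46, edgeR adjusted p 0.000636) and *Atrx* lay at -0.00. The calls of *Ash1l*, *Daxx* and *Atrx* were lost in each fit that left out 1 library, and that of *Setd2* without Dnmt1 KO replicate 2 (edgeR adjusted p 0.0698) or control replicate 2 (adjusted p 0.0526). *Kmt2a* lost its call without Dnmt1 KO replicate 2 (adjusted p 0.0802). Cycling nuclei were deeper, with medians of 13059 to 20162.5 transcripts per library against 9073 to 15203, and the part of depth in these differences was not tested.

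**Figure D2:**
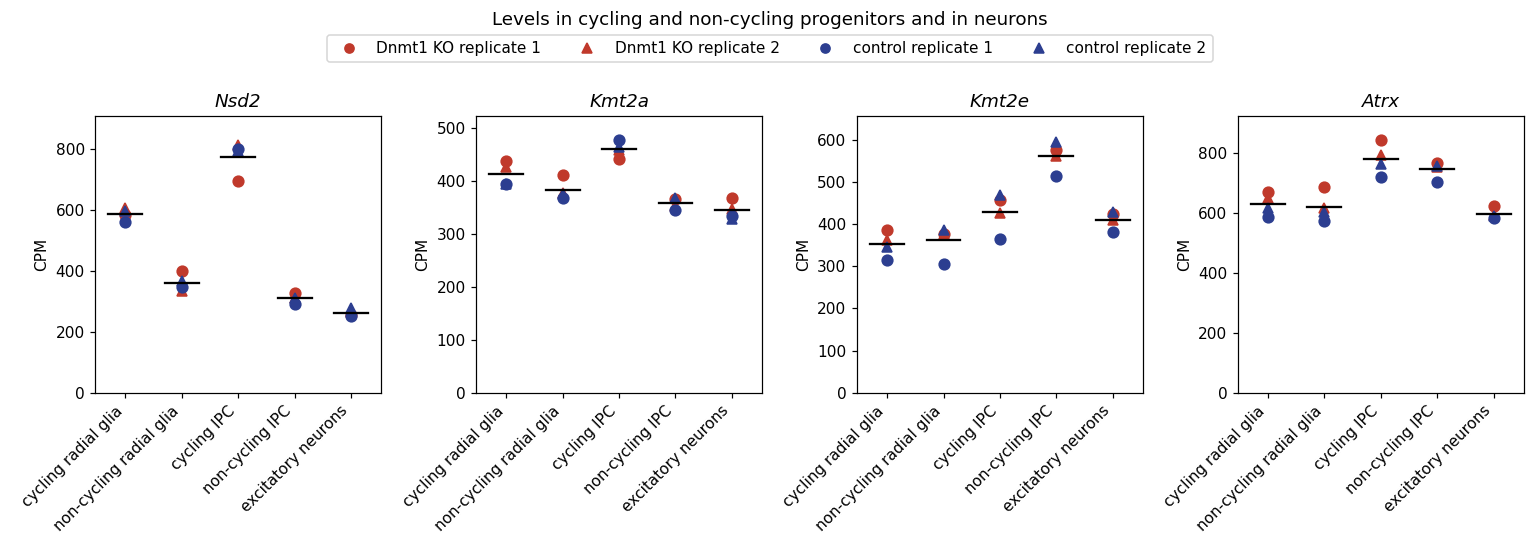
CPM (vertical axes from 0) of *Nsd2*, *Kmt2a*, *Kmt2e* and *Atrx* in cycling and non-cycling radial-glia-like and IPC-like nuclei and in excitatory neuron nuclei, 1 point per library and a bar at the mean. *Nsd2* separates cycling from non-cycling nuclei in both progenitor classes, while *Kmt2e* separates radial-glia-like from IPC-like nuclei among non-cycling nuclei but overlaps between them among cycling ones.

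*Kmt2e* was higher in IPC-like than in radial-glia-like nuclei, though the classes overlapped among cycling nuclei. In mean CPM it was also lower in radial-glia-like nuclei than in every neuron class. It reached 383, 367, 317 and 367 CPM in radial-glia-like nuclei and 556, 541, 489 and 565 CPM in IPC-like nuclei, in the usual order of libraries. Every library rose, by 1.45-fold to 1.54-fold, and the lowest IPC-like value lay above the highest radial-glia-like value. This gave a log2 fold change of 0.69 (SE 0.0488, edgeR adjusted p 4.84e-06), and it was 0.76 among non-cycling nuclei. *Atrx* followed the same course, from 682, 640, 586 and 612 CPM to 778, 766, 710 and 748 CPM, with a log2 fold change of 0.36 (SE 0.0484, edgeR adjusted p 0.000255). Its ranges did not overlap either. *Kmt2d* (0.17, SE 0.0566, edgeR adjusted p 0.0336) and *Nsd1* (0.15, SE 0.0486, adjusted p 0.0253) were also called higher in IPC-like nuclei, but on library totals these values were 0.06 and 0.05 and no longer called. The call of *Nsd1* was lost in each fit without 1 library, and that of *Kmt2d* without Dnmt1 KO replicate 1, control replicate 1 or control replicate 2 (edgeR adjusted p 0.0673, 0.0972 and 0.114). With *Nsd2* lower, 5 of 10 members were called in this contrast, against 57.4% of all genes. The remaining members had TMM log2 fold changes from -0.03 (*Ash1l*) to 0.09 (*Setd2*). On library totals *Ash1l* was called lower in IPC-like nuclei (-0.13, edgeR adjusted p 0.0447), and *Setd2* (-0.02), *Kmt2a* (-0.10) and *Kmt2c* (-0.03) turned below 0 without a call. In CPM *Ash1l* and *Kmt2a* were lower in IPC-like nuclei in all 4 libraries.

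Between radial-glia-like and excitatory neuron nuclei 7 members were called, against 71.9% of all genes, so that a call in this contrast is the common outcome. *Ash1l* (0.23, SE 0.0541, edgeR adjusted p 0.00779), *Nsd1* (0.17, SE 0.0539, adjusted p 0.0283) and *Kmt2d* (0.13, SE 0.0501, adjusted p 0.0489) were higher in radial-glia-like nuclei with *Nsd2*. *Kmt2e* was lower, with a log2 fold change of -0.69 (SE 0.0537, edgeR adjusted p 3.44e-05), and kept that direction on library totals (-0.20). *Kmt2a* (-0.25, SE 0.0521, edgeR adjusted p 0.00452) and *Atrx* (-0.41, SE 0.0563, adjusted p 0.000573) were lower relative to the typical gene, while on library totals they were higher, by 0.24 (adjusted p 0.00436) and 0.08 (adjusted p 0.246). Their CPM show the second view: *Kmt2a* held 430, 412, 390 and 393 CPM in radial-glia-like and 367, 347, 334 and 327 CPM in neuronal nuclei, higher in every library. *Setd2*, *Kmt2c* and *Daxx* were not called with TMM, yet on library totals 9 members were called, 8 of them higher, against 78.6% of all genes. The share of higher calls among all called genes rose from 51.2% to 73.4% with that scaling. Among non-cycling radial-glia-like nuclei alone, 3 members were called, *Kmt2a*, *Kmt2e* and *Atrx*, all lower, against 57.8% of all genes. Without Dnmt1 KO replicate 2, 4 members were called, since *Ash1l* (edgeR adjusted p 0.0766), *Nsd1* (0.229) and *Kmt2d* (0.374) then missed the threshold. *Nsd1* and *Kmt2d* also missed it without control replicate 1 (adjusted p 0.100 and 0.108) or control replicate 2 (0.0685 and 0.130).

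MGE-interneuron-like nuclei, the class to which the *Sst* lineage belongs, differed little from excitatory neurons. *Ash1l* was the single member called there, against 33.3% of all genes. It reached 318, 349, 337 and 326 CPM in MGE-interneuron-like and 288, 286, 270 and 272 CPM in excitatory neuron nuclei, without overlap. This gave a log2 fold change of 0.19 (SE 0.0545, edgeR adjusted p 0.0357), and without Dnmt1 KO replicate 2, control replicate 1 or control replicate 2 the adjusted p was 0.135, 0.132 and 0.116. The call was also lost with the looser gate (adjusted p 0.0746) and without the low-count filter (0.268), where *Kmt2c* was called lower instead (-0.22, adjusted p 0.0118). The other 9 members lay between -0.16 (*Kmt2c*, SE 0.0550, adjusted p 0.0625) and 0.11 (*Nsd2*, SE 0.0509, adjusted p 0.161), and *Nsd2* passed on library totals (0.17, adjusted p 0.0320). With that scaling the values of *Setd2* (-0.01 with TMM), *Kmt2e* (-0.04), *Nsd1* (-0.05) and *Atrx* (-0.04) turned to 0.06, 0.03, 0.01 and 0.03, none called with either scaling.

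**Figure D3:**
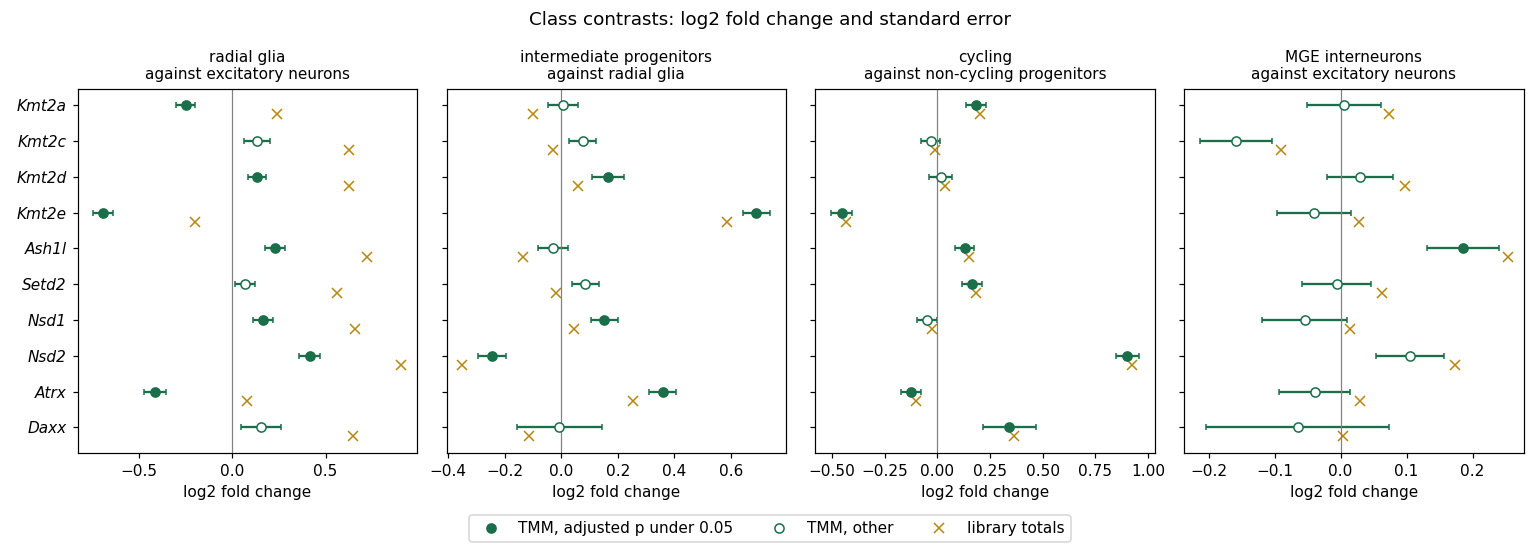
Log2 fold change (horizontal axes, different ranges) of the 10 members in 4 class contrasts with TMM (circles, filled where the edgeR adjusted p is under 0.05, bars for the standard error) and on library totals (crosses). Crosses lie to the right of the circles in the contrast of radial glia with neurons (the median of all genes was 0.02 and 0.51), and nearly on them in the cycling contrast.

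Partner genes of the same pathways were counted in 4 lists with 60 genes. Among the demethylases of H3K4 and H3K36 all 11 tested were called higher in IPC-like than in radial-glia-like nuclei. In this contrast 57.4% of all genes were called in either direction. The median log2 fold change of the demethylases was 0.75 against -0.02 over all genes. *Kdm1a*, which removes H3K4 methylation, changed by 1.44 (SE 0.0545, edgeR adjusted p 1.91e-07) and the H3K4 demethylase *Kdm5b* by 1.29 (SE 0.0558, adjusted p 3.64e-07). *Kdm7a* led the list with 1.51 (SE 0.0588, adjusted p 2.14e-07), though its product is known for acting on H3K9 and H3K27. All 11 were likewise called on library totals and among non-cycling nuclei. Against excitatory neurons, 9 of 12 were called lower and 0 higher in radial-glia-like nuclei with TMM, but 6 lower and 5 higher on library totals, while 71.9% and 78.6% of all genes were called with these scalings, a similar share with TMM. In the cycling contrast 9 of 11 were called lower (51.4% of all genes were called in either direction), whereas within radial-glia-like nuclei 4 were lower and 2 higher (28.6% of all genes), and within IPC-like nuclei 7 were lower (36.4% of all genes).

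Among the other lists, the H3.3 histone chaperones, the functional partners of *Atrx* and *Daxx*, rose in dividing nuclei. Of 12 genes, 8 were called higher and 1 lower in cycling progenitors (median 0.23), where 51.4% of all genes were called in either direction. Within radial-glia-like nuclei 7 were higher and 1 lower, against 28.6% of all genes, and within IPC-like nuclei 5 and 1, against 36.4%. DESeq2 (40.1% of all genes) and the fit without Dnmt1 KO replicate 2 (44.4%) each called 5 higher and 1 lower. *Asf1b*, a replication-linked chaperone, changed by 4.13 (SE 0.138, edgeR adjusted p 3.71e-08), *Dek* by 1.42 (SE 0.0701, adjusted p 5.06e-07) and *Nasp*, a carrier of soluble histone, by 0.77 (SE 0.0604, adjusted p 9.00e-06). *Ubn2* fell by 0.57 (SE 0.0479, adjusted p 1.39e-05). Of the 17 H3K36 methyltransferases and readers, 9 were called higher and 1 lower, a share near that 51.4% of all genes. Within radial-glia-like nuclei 8 were higher and 1 lower, against 28.6% of all genes, and within IPC-like nuclei 3 and 1, against 36.4%. The list was led by *Phf19* at 2.50 (SE 0.143) and *Dnmt3a* at 0.85 (SE 0.0826). *Phf19*, which reads H3K36 methylation for Polycomb, and *Dnmt3a* were also among the largest differences of radial-glia-like over neuronal nuclei (5.89, SE 0.192, and 2.21, SE 0.169). Both *Phf19* (2.80 to 3.08 CPM over all nuclei) and *Asf1b* (2.70 to 4.26 CPM) were low, so their large fold changes rest on low counts. Of the 19 H3K4 methyltransferases and COMPASS subunits, 9 were called higher and 2 lower in cycling nuclei, again near the share of all genes, with 6 and 1 within radial-glia-like and 8 and 1 within IPC-like nuclei, led by *Pagr1a* (0.98, SE 0.106) and *Paxip1* (0.81, SE 0.0596), which form a pair in the KMT2C and KMT2D complexes. In MGE-interneuron-like against excitatory neuron nuclei 9 of 58 partners tested were called higher and 7 lower, below the 33.3% of all genes called, with *Dnmt3a* highest (0.94, SE 0.100) and *Kdm2b* lowest (-0.79, SE 0.0685).

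Between the genotypes no member was called in any of 7 populations, against 0% of all genes in each (0 of 7217 to 21516 tested by edgeR, with 211 to 1612 genes at an unadjusted p under 0.05). DESeq2 called 0 to 205 genes per population and 0 members. Among the members, *Daxx* in deep-layer-like nuclei had the only unadjusted p under 0.05. In that class it reached 4.66 and 3.41 CPM in the KO pair against 5.87 and 6.0 CPM in the control pair, so all values were lower in Dnmt1 KO. Separation of the genotypes in either direction was seen for 39.2% of all genes there. The log2 fold change of *Daxx* was -0.56 (SE 0.213, edgeR unadjusted p 0.0423, adjusted p 0.745). Over all nuclei *Daxx* reached 5.42 and 4.55 against 6.31 and 6.63 CPM, with a log2 fold change of -0.40 (SE 0.154, edgeR adjusted p 0.649). Its log2 fold changes were -0.47 in MGE-interneuron-like, -0.40 in IPC-like, -0.21 in upper-layer-like nuclei and, in radial-glia-like ones, -0.16, none past the threshold.

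The 9 long members lay mostly slightly above 0 in these comparisons. *Ash1l* in IPC-like nuclei had the largest of their differences outside the *Sst*+/*Gad2*+ nuclei, with 457 and 438 CPM in the KO pair against 388 and 395 CPM in the control pair. The groups did not overlap, as for 39.7% of all genes there in either direction. The log2 fold change of *Ash1l* was 0.24 (SE 0.106, edgeR unadjusted p 0.0720, adjusted p 0.745). *Atrx*, the X-linked member, reached 661 and 626 against 595 and 603 CPM over all nuclei (0.08, SE 0.105, adjusted p 0.829) and 682 and 640 against 586 and 612 CPM in radial-glia-like nuclei (0.18, SE 0.103, adjusted p 0.769). *Kmt2a* in deep-layer-like nuclei reached 364 and 346 against 326 and 307 CPM (0.18, SE 0.0996, edgeR adjusted p 0.750). *Nsd1* was high in 1 library, with 379 CPM in Dnmt1 KO replicate 1 against 301, 307 and 309 CPM in the other 3 over all nuclei, and its log2 fold change of 0.12 became -0.04 without that library. *Kmt2d* behaved alike (107 CPM in Dnmt1 KO replicate 1 and 89.5 to 96.6 CPM in the others), turning from 0.03 to -0.09.

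Gene length moved with these small differences. In every population genes spanning at least 100 kb had a median log2 fold change above 0 (0.037 to 0.095) and genes under 10 kb one below 0 (-0.128 to -0.058), while *Daxx* spans 6.18 kb and the other members 39.5 kb or more. The part of length in the members' values was not tested. The medians of the members were 0.05 over all nuclei, -0.01 in *Sst*+/*Gad2*+, 0.04 in MGE-interneuron-like, 0.13 in radial-glia-like, 0.09 in IPC-like and upper-layer-like and 0.10 in deep-layer-like nuclei, beside -0.01 to 0.00 over all genes. In CPM the genotypes did not overlap for 5 members over all nuclei (*Kmt2a*, *Kmt2c*, *Ash1l* and *Atrx* higher and *Daxx* lower in Dnmt1 KO), against 40.1% of all genes. For the same reading in deep-layer-like nuclei the 5 were these genes again, against 39.2%. In upper-layer-like nuclei they were 4 (*Kmt2a*, *Kmt2c* and *Ash1l* higher, *Daxx* lower, against 32.2%), in IPC-like nuclei 4 (*Kmt2c*, *Ash1l* and *Atrx* higher, *Daxx* lower, against 39.7%) and in radial-glia-like nuclei 4, all higher (*Kmt2a*, *Ash1l*, *Nsd2* and *Atrx*, against 38.3%). In MGE-interneuron-like nuclei they were 5, against 38%: *Atrx* was higher and *Setd2*, *Kmt2a*, *Kmt2e* and *Daxx* were lower in CPM, although with TMM the log2 fold changes of *Kmt2a* and *Kmt2e* were 0.02 and 0.03.

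**Figure D4:**
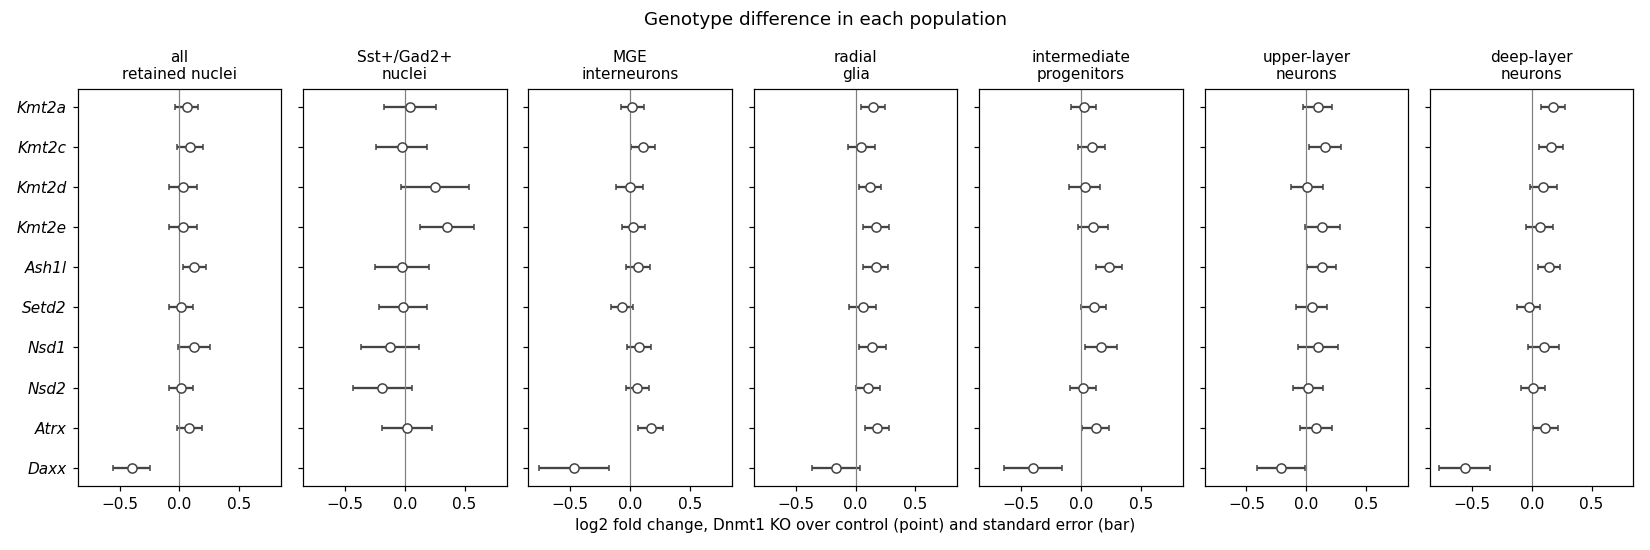
Log2 fold change of Dnmt1 KO over control (horizontal axes, point, with its standard error as a bar) for the 10 members (vertical) in 7 populations, 2 libraries per genotype. No member passed the threshold, *Daxx* lay below 0 in the 6 populations where it was tested, and for the 9 members tested in *Sst*+/*Gad2*+ nuclei the bars there are wider than in the other populations.

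In *Sst*+/*Gad2*+ nuclei, which include the targeted cells, *Kmt2e* had the largest difference. It reached 431 and 386 CPM in the KO pair against 296 and 370 CPM in the control pair, counted from 102, 829, 244 and 256 transcripts. The genotypes did not overlap, as for 33.5% of all genes there, and *Kmt2e* was the only member so placed. This gave a log2 fold change of 0.35 (SE 0.226, edgeR adjusted p 1.00), and it was 0.11 when the upper limit on transcripts per barcode was dropped. *Kmt2d* followed with 0.25 (SE 0.281), and *Nsd2* lay at -0.19 (SE 0.245). *Ash1l* (266 and 344 against 307 and 345 CPM), *Kmt2a* (296 and 351 against 342 and 316 CPM) and *Atrx* (617 and 599 against 577 and 676 CPM) overlapped between the genotypes, with log2 fold changes of -0.02, 0.04 and 0.02 (SE 0.227, 0.216 and 0.210). *Daxx* had 17 transcripts in these nuclei and was not tested. Standard errors were 0.202 to 0.281, with 16 nuclei in Dnmt1 KO replicate 1. The smallest difference that could have been called here was not measured, and *Kmt2e* at 0.35 was not called. The tdTomato and Cre transcripts were not used here, so nuclei in which *Dnmt1* was recombined were not told apart from others.

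The difference between genotype effects was tested as well. In the interaction of genotype with class, *Sst*+/*Gad2*+ against excitatory neuron nuclei, 0.269% of all genes were called (43 genes, DESeq2 0) and 0 members. The largest member values were 0.28 for *Kmt2e* (SE 0.315) and 0.26 for *Kmt2d* (SE 0.321), with an edgeR adjusted p of 1.00 for all 10. For MGE-interneuron-like against excitatory neuron nuclei 0% of genes were called by edgeR (376 at an unadjusted p under 0.05, DESeq2 1) and 0 members, whose values ran from -0.13 (*Kmt2a*, SE 0.117) to 0.08 (*Atrx*, SE 0.118). None of the partner genes tested (60 over all nuclei, 50 in *Sst*+/*Gad2*+ nuclei and 57 to 59 in the gated classes) was called between the genotypes.

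How far each source of variation went was described over 40 sums of 10 classes and 4 libraries, on the scale of log2(CPM + 1). The class accounted for 93.5% of the variance of *Kmt2c*, 88.5% of *Kmt2d* and 87.7% of *Nsd2*, for 55.4% of *Kmt2a* and for 19.7% of *Daxx*, against a median of 78.2% over 8622 genes. The library as a whole accounted for 17.3% in *Daxx*, 13.7% in *Atrx*, 12.7% in *Nsd1* and 11.6% in *Kmt2a*, with a median of 4.50% over all genes, and the genotype is a part of that share. The genotype accounted for 15.9% in *Daxx*, 13.5% in *Atrx*, 9.62% in *Kmt2a* and 6.99% in *Ash1l*, with a median of 1.11% over all genes. In the other 6 members it accounted for less than 4% (3.29% in *Nsd1*). The 10 classes came from the same 4 libraries, so this share cannot separate genotype from library or batch. No member was called between the genotypes. Of 45 member pairs 42 correlated positively, with a median Pearson r of 0.36 over the 40 sums, which share libraries and total scaling. The share of positive pairs over all genes was not counted, so this count is no trait of the members. *Kmt2d* with *Nsd1* (r = 0.92), *Setd2* with *Nsd1* (r = 0.91) and *Setd2* with *Kmt2d* (r = 0.88) were closest. Outside the member list, the genes most like each member were *Tcf3* and *Tead2* for *Setd2* (both r = 0.92), *Ezh2* (0.91) and *Pou2f1* (0.90) for *Kmt2c*, *Rexo1* and *Papola* for *Kmt2d* (both 0.93) and *Ppp4r3a* and *Pds5a* for *Ash1l* (both 0.93). For *Nsd1* they were *Zfand6* and *Cnot4* (both 0.93), for *Nsd2* the splicing genes *Hnrnpr* and *Srsf10* (both 0.91), for *Atrx* *Smg6* and *Strn3* (both 0.87) and for *Kmt2e* *Disp3* (0.85) and *Fbxo11* (0.84). *Kmt2a* (*Pbx4* and *Rragb*, both 0.78) and *Daxx* (*Erh*, 0.79, and *Eif1ax*, 0.74) had the least similar partners.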

How the data were processed

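Single-nucleus libraries were prepared by the authors with the split-pool Evercode kit, and reads were processed in Trailmaker against GRCm39 (mm39). The deposited values are raw counts of transcripts per barcode and gene without normalization. The submitters' processing notes also name R 4.4.1 and Seurat 5.0.1.9001. The Trailmaker version and the counting of introns and strand are not given in the sources used here.

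Nuclei were barcodes holding 1500 to 60000 transcripts, of which mitochondrial ones made up 10% or less. This left 29656, and the mitochondrial limit removed 0. The range is the study's for reads, so mapped reads were tried as an alternative. Of 56884 genes, 56323 matched GENCODE vM39 by identifier. Doublets called with scrublet at an expected rate of 5% (2.96%, 5.49%, 4.58% and 7.36% of nuclei) were kept.

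The members and all gene lists were chosen with earlier results of these data known. Counts were scaled to 10000 per nucleus and log-transformed, and each of 14 marker lists was scored as the z-scored mean. A nucleus joined a class at a score of 0.5 and a lead of 0.25 over the next list. Cycling meant a cycle score of at least 1 and non-cycling below 0. These limits were set after the files had been seen. By this gate 19.6% of nuclei stayed unassigned, and 22.6% lay within 0.25 of a limit. Oligodendrocyte-precursor, microglial, meningeal and choroid gates had fewer than 20 nuclei in some library and were not used.

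Raw counts were summed per library and population, since nuclei are not replicates, and tested with edgeR 4.0.16 (R 4.3.3, TMM, filterByExpr, quasi-likelihood test, two-sided) and Benjamini-Hochberg adjustment over all genes at 0.05. The design was genotype alone between genotypes, class with library as a block between classes, and both with their interaction. Standard errors were derived from the F statistic. The procedure was tested on simulated data. DESeq2 1.42.0, other filters, gates and scalings and leaving out each library were alternatives. All 10 members were named in every comparison. Partners were named for the 3 largest called differences per list, direction and contrast, and similar genes as the 2 highest Pearson r among genes with a mean of at least 10 CPM. *Kdm6a*, *Kdm5c*, *H3f3b* and *H3f3a* were named after their values were seen.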

Additional observations from a re-analysis of the deposited data

How the results depend on the processing

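No member was called between the genotypes or in an interaction under any alternative that was run. Of 928 member values from the genotype comparisons under alternatives, 86 changed sign, none of them called, and 21 moved by more than their standard error. Over all genes these comparisons gave 0 calls, but DESeq2 gave up to 205, no low-count filter 3 to 493, a batch term 0 to 3, and leaving out 1 library 0 to 501 (501 in radial-glia-like nuclei without Dnmt1 KO replicate 2, and 188 over all nuclei without Dnmt1 KO replicate 1). With 1 library in an arm, its spread was assumed to be that of the other arm. Over all genes, libraries with the same replicate number did not deviate together (correlation -0.06 to 0.07, 2 pairs), although *Xist* and *Uty* levels followed the number, and the fit with a replicate block called 0 members and 0 genes in all 7 populations. The interaction in *Sst*+/*Gad2*+ nuclei called 43 genes, 27 with the stricter gate, 0 with DESeq2 and 20 to 282 without 1 library. That in MGE-interneuron-like nuclei called 0 genes, 115 without the low-count filter and 0 to 20 without 1 library.

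For members called between radial-glia-like and excitatory neuron nuclei (7), no low-count filter gave 4, non-cycling radial glia 3, and leaving out 1 library 4 to 8, while the share of all genes called went from 71.9% to 37.3%, 57.8% and 65.7% to 69.1%. For MGE-interneuron-like nuclei (1), library totals gave 2, the looser gate 0 and leaving out 1 library 0 to 1 (33.3% of all genes, then 35.2%, 31.9% and 25.0% to 31.1%). Without the low-count filter (16.9%) the 1 member called was *Kmt2c*, lower, in place of *Ash1l*. For IPC-like nuclei (5), no low-count filter gave 3 and leaving out 1 library 3 to 4 (57.4% of all genes, then 30.0% and 51.3% to 53.9%). For cycling nuclei (7), DESeq2, radial-glia-like nuclei alone and IPC-like nuclei alone gave 3 each, the stricter gate 4, and leaving out 1 library 2 to 4 (51.4% of all genes, then 40.1%, 28.6%, 36.4%, 50.5% and 44.4% to 46.8%), with 3873 and 4521 genes called within the single classes and 7619 in both together. The class in which a member was highest was a progenitor class for 8 members, and for 6 to 10 without 1 library. The share over all genes was not counted. Of 480 member values from the class contrasts under alternatives, 47 changed sign. In 5 of them the TMM value with all nuclei had been called: on library totals *Kmt2a* (0.24) and *Atrx* (0.078) in radial-glia-like against neuronal nuclei, *Nsd2* there with non-cycling nuclei (-0.044), and *Kmt2e* (0.020) and *Atrx* (0.081) for cycling within radial-glia-like nuclei. Library totals and the fits by cycling state were chosen after seeing the data. The first changes the reference, and the others change the nuclei compared.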

Other observations

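The partner lists held 2 X-linked genes that are known to escape X inactivation, and they differed between libraries in a way that the genotype did not follow. *Kdm6a*, an H3K27 demethylase in KMT2C and KMT2D complexes, reached 208, 145, 182 and 107 CPM over all nuclei, in the order Dnmt1 KO replicate 1, Dnmt1 KO replicate 2, control replicate 1, control replicate 2. *Kdm5c*, an H3K4 demethylase, reached 94.0, 64.9, 84.4 and 62.8 CPM. In the same order *Xist*, the transcript of the inactive X chromosome, stood at 1281, 4.13, 1157 and 0.0887 CPM and the Y-linked *Uty* at 2.32, 167, 2.60 and 143 CPM. Both demethylases were therefore higher in the *Xist*-positive library of each genotype. X-linked *Atrx*, with 661, 626, 595 and 603 CPM, was not ordered in this way in the control libraries. These genes were chosen after their values were seen, and no test was made. Since each genotype had 1 library of either kind, the number of the replicate and the presence of *Xist* cannot be told apart.

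*H3f3b*, a gene for histone H3.3, the cargo of ATRX and DAXX, reached 19.8 and 16.1 CPM in the KO pair against 28.6 and 29.1 CPM in the control pair over all nuclei. Like *Daxx* it was lower in both Dnmt1 KO libraries, and it was not called (log2 fold change -0.70, SE 0.129, edgeR adjusted p 0.649). The other H3.3 gene of the list, *H3f3a*, reached 47.6 and 45.3 CPM in the KO pair against 51.5 and 51.9 CPM in the control pair. Over all nuclei 40.1% of all genes separated the genotypes in either direction, and a link between *H3f3b* and *Daxx* was not tested. Genes under 10 kb, such as *Daxx*, had a median log2 fold change of -0.11 there, and the part of length was not tested. *H3f3b* and *H3f3a* were chosen after their values were seen.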
